A study of Mus musculus with 5 samples.

Results

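Potassium channel genes were examined in RNA-seq of mouse tibialis anterior (TA), a fast-twitch muscle of the lower leg. They were taken as all genes of the table whose symbol starts with Kcn, which gave 67 of 17015 genes under 21 name stems, and they were grouped by the letters that follow Kcn. Of the 67, 27 reached a mean of 0.5 FPKM over all libraries and were tested, and 40 lay under this minimum. FPKM, fragments per kilobase of transcript, is scaled between libraries and corrected for transcript length. Levels can therefore be set side by side and summed across genes. TA came from sedentary male mice of 8 weeks of a C57BL/6J-derived line with floxed Nrip1 alleles, in which loxP sites flank the last exon with the whole coding sequence. The 3 WT control libraries came from Cre-negative littermates. The 2 libraries labelled skmNrip1-/- came from mice with Cre under the myogenin promoter, which is active in differentiating skeletal muscle fibers and leaves other cells of the tissue with an intact gene. The study's legend names 3 mice per group, and 2 libraries labelled skmNrip1-/- were analysed here.

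Nrip1 encodes RIP140, a coregulator that binds nuclear receptors. Its level went against the labels. Nrip1 read 4.64, 7.69 and 6.55 FPKM in the WT control group, and 25.3 and 22.5 FPKM in the libraries labelled skmNrip1-/-, a log2 fold change of 1.94 (SE 0.21, limma adjusted p = 0.0261), and it was called under 9 of the 14 alternative fits. The paper presents Nrip1 expression and a RIP140 western blot of gastrocnemius and heart, not TA, as validation of this line. An FPKM of the whole gene does not separate the floxed last exon from the other exons, so it does not measure the deletion. Why Nrip1 read higher was not tested. Because of these values, every direction below is given for the libraries labelled skmNrip1-/- over WT control. The relative depth of the libraries, from steps between low FPKM values, ran from 0.812 to 1.1 of WT control replicate 1, and the lowest was skmNrip1-/- replicate 1. Absolute depth is unknown. Genes of the mitochondrial genome took 45.4% to 50.7% of the summed FPKM in WT control and 58.6% and 60.9% in the libraries labelled skmNrip1-/-. The median ratio of a library to the geometric mean of all libraries was 1.0017 in each. The deposited FPKM were thus already on that scale, which sets the median log2 fold change of all genes near 0. Of the 14 alternative fits, the rescaling by this median of ratios could therefore not change a call. When each library was instead scaled to the same sum of FPKM (TPM), the median log2 fold change of all genes moved from -0.0005 to -0.29.

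Potassium channels set the resting potential of a muscle fiber and end its action potential. Voltage-gated channels (Kcna, Kcnb, Kcnc, Kcnd, Kcnh, Kcnq) open on depolarization, inward rectifiers (Kcnj) hold the membrane near rest, calcium-activated channels (Kcnma, Kcnn) follow cell calcium, and 2-pore channels (Kcnk) carry leak current. A further set (Kcnf, Kcng, Kcns, Kcnv) codes for subunits that form no channel alone and assemble with Kcnb subunits, and others (Kcnab, Kcne, Kcnip, Kcnmb) code for auxiliary subunits. Kcnrg encodes a soluble regulator of Kcna channels, not a channel.

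Kcnk1, a 2-pore leak channel, went from rank 32 of the 67 members in WT control to rank 5 in the libraries labelled skmNrip1-/-. With a call set at an adjusted p of 0.05 or less in limma and a fold change of at least 1.2, 2 of the 27 tested members, or 7.41%, were called higher, Kcnk1 with the largest fold change, where 0.370% of the 12148 tested genes were. No member was called lower, where 0.0823% of all tested genes were, while 3 members were lower at an unadjusted limma p of 0.05 or less. The threshold on the mean of all libraries was passed through the libraries labelled skmNrip1-/- alone by 2 members, Kcnk1 and Kcna10, and through WT control alone by 3, Kcnab1, Kcnj16 and Kcnn3, so counts over the tested members are a description only. Over the tested members, log2 fold changes had a median of -0.004. Within 0.5 of 0 lay 18 of 27, a smaller share than the 11010 of all 12148 genes.

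**Figure D1:**
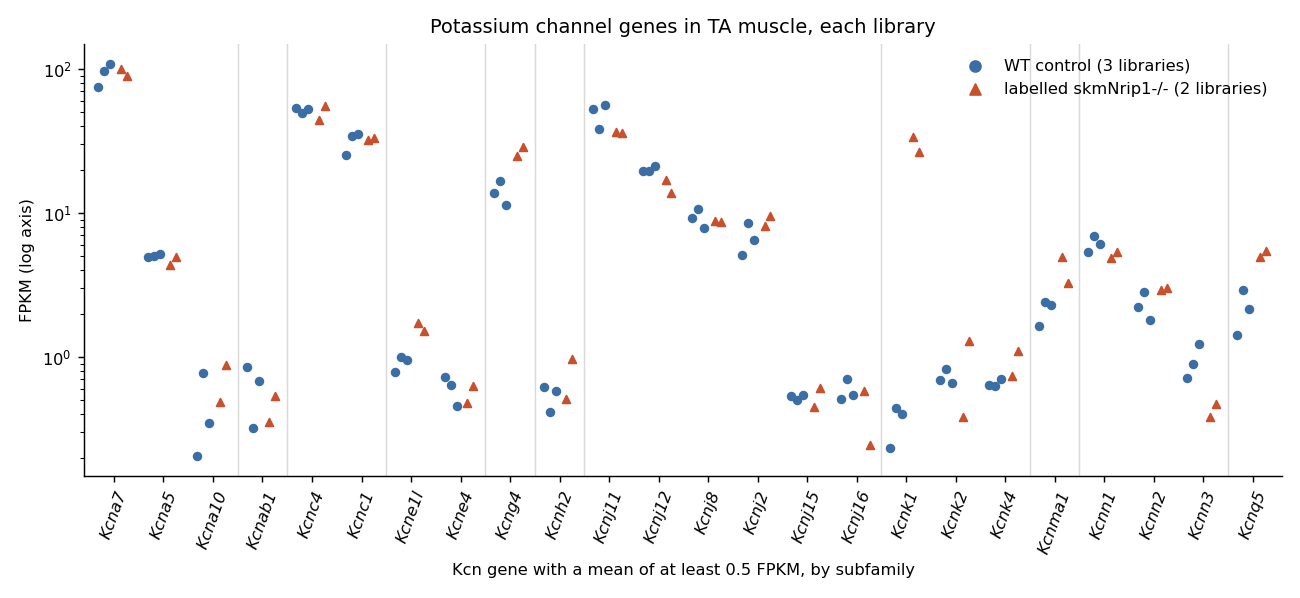
FPKM on a log axis of 24 of the 27 tested potassium channel genes, ordered by subfamily and within it by mean, with 1 point per library (circles, WT control; triangles, labelled skmNrip1-/-). Kcna7 is highest in both groups, and Kcnk1 stands apart with WT control libraries between 0.232 and 0.441 FPKM and the others at 33.8 and 26.5 FPKM.

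**Figure D2:**
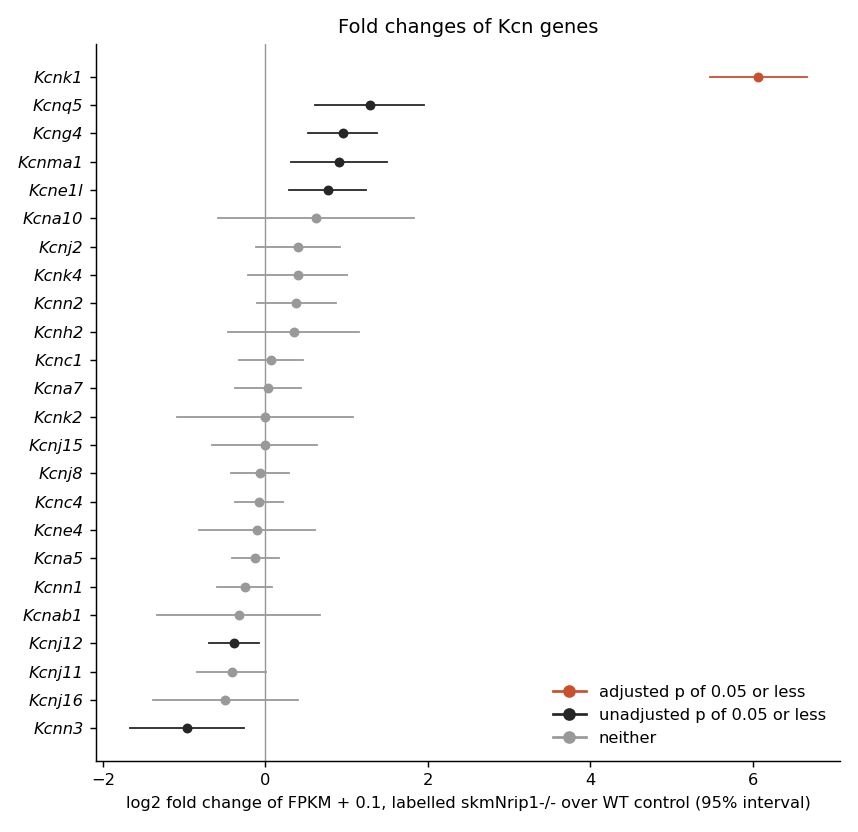
Log2 fold change of FPKM + 0.1 for 24 of the 27 tested potassium channel genes, libraries labelled skmNrip1-/- over WT control, with 95% intervals from limma. Kcnk1 lies at 6.06, apart from Kcnq5 at 1.29 and Kcng4 at 0.95, and most of the other intervals include 0.

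Kcnk1 read 0.232, 0.441 and 0.402 FPKM in the WT control group, and 33.8 and 26.5 FPKM in the libraries labelled skmNrip1-/-. The groups were far apart, and the lowest library labelled skmNrip1-/- lay well above the highest WT control. The means were 0.358 ± 0.111 (SD, n = 3) and 30.1 ± 5.14 (SD, n = 2), a ratio of 84.1. The log2 fold change was 6.06 (SE 0.25, 95% interval 5.47 to 6.66, limma adjusted p = 0.000619). Its fold change on the log2(FPKM + 0.1) scale is smaller than the ratio of means, since the added 0.1 is of the order of the WT control level. Kcnk1 was called under each of the 14 alternative fits, with log2 fold changes from 4.51 to 6.39. Of these fits, the rescaling by median of ratios could not change the outcome. Kcnk1 ranked 32 among the 67 members by its mean in WT control and 5 in the libraries labelled skmNrip1-/-.

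The gene lies on the plus strand at chr8:125995170-126030685 (mm10), and its last part overlaps Gm45875, an antisense gene that was not analysed here. The library kit is not stated to mark strand, so reads of Kcnk1 and Gm45875 cannot be told apart. The promoter window of Kcnk1, from 250 bases before to 50 after the RefSeq transcription start (GRCm38.p6, chr8:125994852-125995151, plus strand), is shown because the gene had the largest fold change of the family. Capitals mark matches, on either strand, to AGGTCA (the nuclear receptor half-site), CANNTG (the E-box bound by myogenic factors), TATAAA and GGGCGG. The windows of Kcng4 (chr8:119635631-119635930, minus strand), an abundant member with groups that did not overlap, and of Kcnf1 (chr12:17176839-17177138, minus strand), the only single-gene stem whose FPKM lay below every WT control library, are set beside it.
Kcnk1: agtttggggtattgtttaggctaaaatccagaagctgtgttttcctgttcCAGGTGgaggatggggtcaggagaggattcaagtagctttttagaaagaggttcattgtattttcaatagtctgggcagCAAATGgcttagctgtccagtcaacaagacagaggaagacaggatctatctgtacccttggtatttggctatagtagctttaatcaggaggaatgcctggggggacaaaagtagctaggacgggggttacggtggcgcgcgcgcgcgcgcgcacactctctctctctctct
Kcng4: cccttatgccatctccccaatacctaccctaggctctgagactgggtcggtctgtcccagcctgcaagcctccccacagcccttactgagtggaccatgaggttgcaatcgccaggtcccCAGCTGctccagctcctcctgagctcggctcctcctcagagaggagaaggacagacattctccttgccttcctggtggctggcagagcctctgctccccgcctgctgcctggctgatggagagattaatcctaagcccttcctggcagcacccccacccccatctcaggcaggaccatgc
Kcnf1: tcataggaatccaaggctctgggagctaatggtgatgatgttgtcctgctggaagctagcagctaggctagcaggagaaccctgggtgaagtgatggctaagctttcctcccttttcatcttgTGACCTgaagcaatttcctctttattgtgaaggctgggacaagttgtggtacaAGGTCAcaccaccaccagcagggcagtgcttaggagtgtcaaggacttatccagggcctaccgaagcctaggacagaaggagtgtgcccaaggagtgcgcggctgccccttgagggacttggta
The Kcnk1 window holds 2 CANNTG matches and none of the other letters searched. The Kcng4 window holds 1 CANNTG match, and the Kcnf1 window holds 2 AGGTCA matches, 1 on each strand. Of the 67 members, 49 had a window in the RefSeq table, with 69 windows in all. AGGTCA was in 5 of these 69 windows (7.25%), against 16.3% of all 32851 windows of the same length. CANNTG was in 76.8% of the members' windows and 72.3% of all, GGGCGG in 42% and 35.7%, and TATAAA in 5.8% and 13.6%. A match of letters is a description of the window, not a binding site.

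Genes beside Kcnk1 were read from the annotation (GENCODE M21, 3 genes on each side). Pcnx2, on its centromeric side at chr8:125751508-125898317, was at 0.405, 0.377 and 0.325 FPKM in WT control and at 2.49 and 1.67 FPKM in the libraries labelled skmNrip1-/-. The groups did not overlap, and Pcnx2 was called (log2 fold change 2.20, limma adjusted p = 0.032). Like Kcnk1, Pcnx2 passed the minimum through the libraries labelled skmNrip1-/- alone (means of 0.369 and 2.08 FPKM), so its call is a description only. Map3k21, a kinase gene between Pcnx2 and Kcnk1, was under the minimum, at 0.0225, 0.0375 and 0.0187 FPKM against 0.152 and 0.170 FPKM, again with no overlap. On the other side of Kcnk1, Slc35f3 was under the minimum with overlapping groups. Coa6, an assembly factor of cytochrome c oxidase, was at means of 23.7 and 21.1 FPKM, and its libraries overlapped (log2 fold change -0.16, limma adjusted p = 0.734). The other flanking genes, A730098A19Rik and Gm45876, were not analysed here. Whether these neighbors share a cause was not tested.

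**Figure D3:**
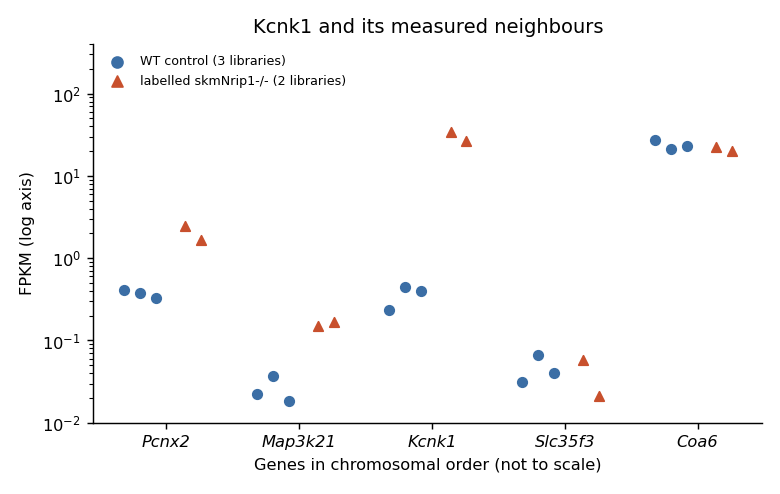
FPKM on a log axis of Kcnk1 and the 4 measured genes that flank it, in chromosomal order and not to scale, with 1 point per library. In Pcnx2, Map3k21 and Kcnk1 both libraries labelled skmNrip1-/- (triangles) lie above every WT control library (circles), and in Slc35f3 and Coa6 the groups overlap.

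The other 2-pore channel genes were low. Kcnk4, a mechanosensitive channel, was at 0.643, 0.626 and 0.704 FPKM against 0.732 and 1.1 FPKM (log2 fold change 0.40, limma adjusted p = 0.612). Its groups did not overlap in FPKM but did in TPM, and it shares its strand and part of its span with Catsperz. Kcnk2, also a mechanosensitive channel, was at 0.689, 0.823 and 0.662 FPKM, with the libraries labelled skmNrip1-/- on either side at 0.380 and 1.3 FPKM. Kcnk6 was under the minimum, at 0.424, 0.413 and 0.394 FPKM against 0.447 and 0.524 FPKM, which overlapped in TPM. Summed over 8 genes, Kcnk was at 2.65 ± 0.182 FPKM (SD, n = 3) in WT control and 33 ± 4.54 FPKM (SD, n = 2) in the libraries labelled skmNrip1-/-, and the share of Kcnk1 in this sum was 13.5% and 91.3%. Without Kcnk1 the other 7 genes summed to 2.23, 2.39 and 2.24 FPKM in WT control and 2.45 and 3.30 FPKM in the others.

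Among the Kcnq genes, voltage-gated channels that open slowly and near rest, Kcnq5 stood above WT control, at 1.41, 2.91 and 2.14 FPKM against 4.98 and 5.41 FPKM. No library of one group reached the other. Its log2 fold change was 1.29 (SE 0.28), and its limma adjusted p was 0.167. Kcnq1 and Kcnq3 were under the minimum and overlapped.

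At an unadjusted limma p of 0.05 or less, 6 of 27 tested members were higher (22.2%, against 6.57% of all tested genes) and 3 were lower (11.1%, against 5.33%). The higher members included Kcnk1, Kcnq5, Kcng4, Kcnma1 and Kcne1l, and the lower included Kcnn3 and Kcnj12. In 8 tested members (29.6%, against 15.8% of all tested genes) both libraries labelled skmNrip1-/- lay above every WT control library, and in 5 (18.5%, against 14.4%) both lay below. The latter included Kcnj11, Kcnj12, Kcnn1 and Kcnn3. In TPM, Kcna5, Kcnc4, Kcnj8 and Kcnj16 also lay below WT control, and Kcnk4 and Kcnn2 overlapped. The median log2 fold change of all genes was -0.29 in TPM, so a move down was not particular to these members. The share of all genes that lay below WT control in TPM was not counted. None of the 3 lower members was called in any alternative fit.

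**Figure D4:**
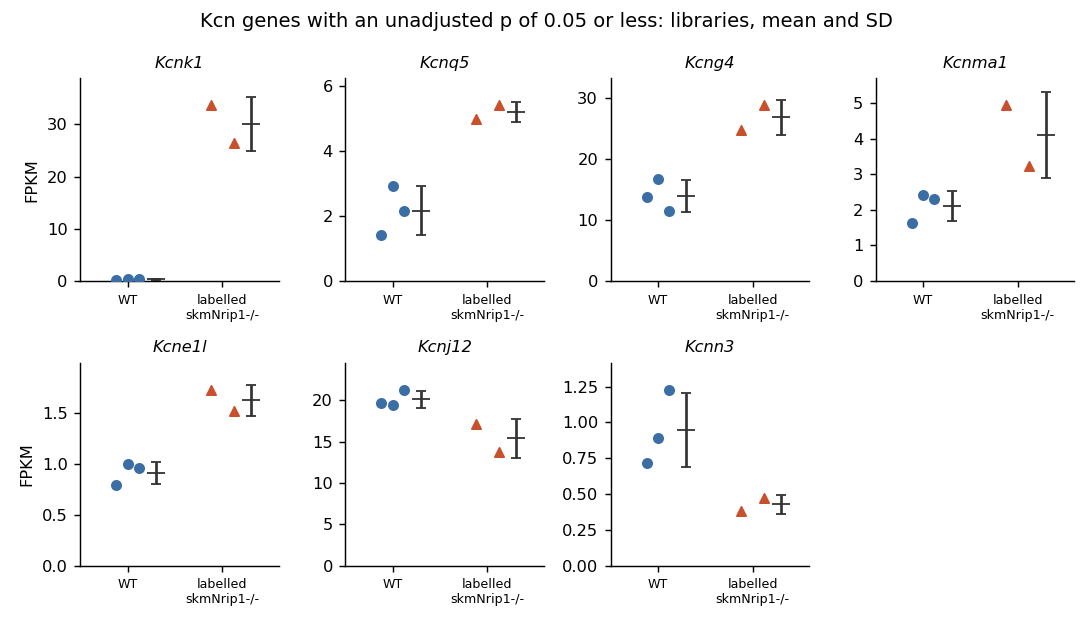
FPKM in each library of 7 of the 9 potassium channel genes with an unadjusted limma p of 0.05 or less, with each axis starting at 0 and the mean and SD of the group beside its points (3 WT control, 2 labelled skmNrip1-/-). In all 7 panels the groups do not overlap, with Kcnk1 near 0 in WT control and at 33.8 and 26.5 FPKM in the libraries labelled skmNrip1-/-.

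Silent subunits, which assemble with Kcnb channels, differed in direction. Kcng4, a silent partner of Kcnb subunits, was at 13.8, 16.8 and 11.4 FPKM against 24.9 and 28.9 FPKM. Its groups did not overlap, and the log2 fold change of 0.95 (SE 0.18, 95% interval 0.53 to 1.37) did not pass the test (limma adjusted p = 0.116). Kcng4 was the most abundant silent subunit gene in both groups. Kcnf1, a silent subunit under the minimum, was at 0.560, 0.311 and 0.588 FPKM against 0.127 and 0.125 FPKM. With no minimum its log2 fold change was -1.34, with a limma adjusted p of 0.216. Kcng1 was at 0.0268, 0.0486 and 0.0787 FPKM against 0.232 and 0.163 FPKM (log2 fold change 0.98, limma adjusted p = 0.273 with no minimum). Kcnv2 was at 0.0506, 0.107 and 0.067 FPKM against 0.212 and 0.156 FPKM (0.70, limma adjusted p = 0.391). The ratios of means were 3.85 for Kcng1 and 2.45 for Kcnv2. The added 0.1 FPKM, above both WT control means (0.0513 and 0.0749 FPKM), makes their log2 values smaller. In Kcng1 and Kcnv2 the libraries labelled skmNrip1-/- were both above WT control, and in Kcnf1 both were below. Kcng2 and Kcns3, at means under 0.3 FPKM in both groups, overlapped in FPKM.

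The voltage-gated Kcna and Kcnc genes held much of the family's level in TA, and the groups overlapped in their main members. Kcna7, a Kcna channel enriched in striated muscle, was the most abundant member, at 75.6, 96.6 and 109 FPKM against 101 and 89.3 FPKM (log2 fold change 0.03, SE 0.17, 95% interval -0.38 to 0.44, limma adjusted p = 0.969), and the sign of this small value turned under TPM and without WT control replicate 1 or skmNrip1-/- replicate 1. Kcnc4, a fast-inactivating channel, was at 53.5, 49.8 and 53.1 FPKM against 44.1 and 55.0 FPKM (-0.08, SE 0.12, limma adjusted p = 0.859). Its interval of -0.38 to 0.22 bounds the difference. Kcnc1, a fast delayed rectifier, was at means of 31.7 and 32.9 FPKM (0.07, limma adjusted p = 0.912). Kcna5 was at means of 5.05 and 4.64 FPKM and Kcna10 at 0.442 and 0.685 FPKM, both with overlap. Kcnh2, the pore of a cardiac delayed rectifier, was at 0.615, 0.417 and 0.577 FPKM against 0.508 and 0.960 FPKM (log2 fold change 0.35, SE 0.34, limma adjusted p = 0.756).

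Among inward rectifiers, Kcnj11 and Kcnj12 were below WT control and neither passed the test. Kcnj11, the pore of the ATP-sensitive channel of muscle fibers, was at 53.3, 38.1 and 56.7 FPKM against 36.7 and 36.1 FPKM. Both libraries labelled skmNrip1-/- lay just under the lowest WT control library. The log2 fold change was -0.42 (SE 0.18, 95% interval -0.85 to 0.01, limma adjusted p = 0.438). Kcnj12, a strong inward rectifier of the resting membrane, was at 19.6, 19.5 and 21.3 FPKM against 17.1 and 13.8 FPKM (-0.39, SE 0.13, limma adjusted p = 0.312). Its value was -0.23 without skmNrip1-/- replicate 2. Kcnj2, the other strong rectifier, was at 5.15, 8.56 and 6.54 FPKM against 8.11 and 9.50 FPKM, with overlap (0.40, limma adjusted p = 0.537). Kcnj8, an ATP-sensitive pore best known from vascular smooth muscle and pericytes, was at means of 9.27 and 8.79 FPKM with overlap. Kcnj15 was at 0.529 and 0.530 FPKM and Kcnj16 at 0.586 and 0.411 FPKM on average, both overlapping. Kcnj3, a G protein-gated rectifier known from heart and neurons, was under the minimum, at 0.0577, 0.0374 and 0.0328 FPKM against 0.392 and 0.326 FPKM. The groups did not overlap, and with no minimum its log2 fold change of 1.69 (SE 0.21) had a limma adjusted p of 0.0541. The ratio of means was 8.42, and the added 0.1 FPKM, above the WT control mean of 0.0426 FPKM, makes this log2 value smaller. The 10 Kcnj genes summed to 88.6, 78.5 and 93.7 FPKM in WT control and to 72.6 and 69.5 FPKM in the libraries labelled skmNrip1-/-, with no overlap in FPKM or TPM.

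Calcium-activated channels had both directions. Kcnma1, the large-conductance channel, was at 1.63, 2.41 and 2.31 FPKM against 4.96 and 3.24 FPKM (log2 fold change 0.91, SE 0.25, limma adjusted p = 0.244). The libraries labelled skmNrip1-/- were both above WT control and differed from each other by more than the WT control libraries did. Kcnn3, a small-conductance channel known from denervated and immature muscle, was at 0.718, 0.894 and 1.23 FPKM against 0.380 and 0.475 FPKM (-0.97, SE 0.29, limma adjusted p = 0.284). Kcnn1 was the most abundant of its subfamily, at 5.40, 6.92 and 6.12 FPKM against 4.87 and 5.35 FPKM (-0.26, SE 0.14, limma adjusted p = 0.555), just without overlap, and its value was -0.17 without WT control replicate 2. Kcnn2 was at 2.24, 2.84 and 1.81 FPKM against 2.91 and 3.03 FPKM (0.38, limma adjusted p = 0.540), without overlap in FPKM and with overlap in TPM. The summed Kcnn level was 9.75 ± 1.01 FPKM (SD, n = 3) and 8.76 ± 0.54 FPKM (SD, n = 2). It overlapped in FPKM and lay below WT control in TPM, where the median of all genes was also lower.

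Auxiliary subunits were low throughout. Kcne1l, an X-linked member of the Kcne family, was at 0.791, 0.994 and 0.958 FPKM against 1.73 and 1.52 FPKM, with no overlap (log2 fold change 0.77, SE 0.20, limma adjusted p = 0.230). Kcne4 was at means of 0.608 and 0.554 FPKM and overlapped. Kcnab1, a cytoplasmic beta subunit of Kcna channels, was at 0.848, 0.319 and 0.680 FPKM against 0.355 and 0.540 FPKM (-0.33, SE 0.42, limma adjusted p = 0.825). Its value was -0.08 without WT control replicate 1 or skmNrip1-/- replicate 1 and -0.67 without WT control replicate 2. No Kcnd, Kcnip or Kcnmb gene reached the minimum.

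The 40 members under the minimum included 19 with a mean under 0.1 FPKM, and 5 of the 67 members were listed at 0 in at least 1 library. In 5 of the 40 (12.5%, against 10.5% of all genes under the minimum) both libraries labelled skmNrip1-/- lay above WT control, and in 2 (5%, against 10.9%) both lay below. The 5 were Kcnj3, Kcng1, Kcnv2, Kcnk6 and Kcnh7. The 2 were Kcnf1 and Kcna2, the latter at 0.158, 0.176 and 0.146 FPKM against 0.121 and 0.134 FPKM. Both shares were close to or under the background, and at such levels 1 library can rest on few fragments.

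Summed over all 67 genes, potassium channel genes were at 297, 321 and 345 FPKM in WT control and 359 and 358 FPKM in the libraries labelled skmNrip1-/-. These sums did not overlap in FPKM, but without Kcnk1 they did (297, 320 and 344 against 325 and 332 FPKM), and with Kcnk1 they also did in TPM, where the mean was the lower of both. The 7 members with a mean of at least 10 FPKM over all libraries made up 80.8% of the total, and Kcnk1 was among them through the libraries labelled skmNrip1-/- alone. Kcna held 31.1% of it in WT control and 28% in the libraries labelled skmNrip1-/-, Kcnj 27.1% and 19.8%, and Kcnc 26.6% and 23.2%. Kcnk went from 0.825% to 9.20% and Kcng from 4.45% to 7.57%. These shares are ratios of the group means of FPKM. The Kcne sum was above WT control in FPKM (1.90 and 2.40 FPKM on average) and overlapped in the libraries scaled to TPM. The Kcnc sum overlapped in FPKM and was below WT control in TPM, where the median of all genes was also lower.

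**Figure D5:**
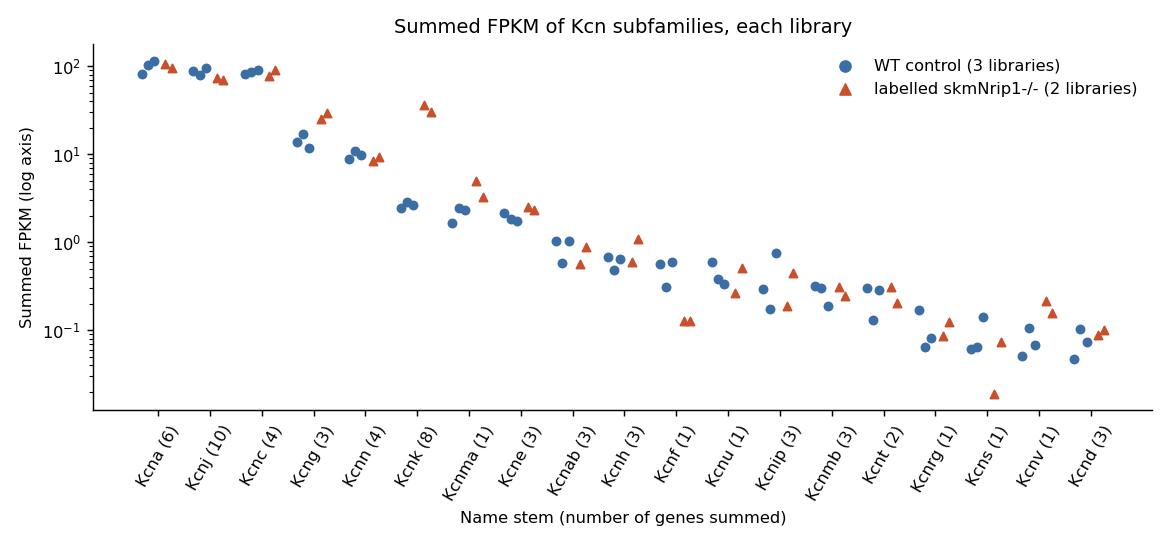
Summed FPKM on a log axis of 19 of the 21 Kcn name stems, with 1 point per library (circles, WT control; triangles, labelled skmNrip1-/-) and the number of genes summed in brackets. Kcnk, Kcng and Kcnma lie above WT control and Kcnj and Kcnf below, while Kcna, Kcnc and Kcnn overlap.

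Proteins that work with potassium channels were counted from lists of other genes. Of 15 partner genes, 9 were tested and none was called in limma (0.370% of all tested genes were called higher and 0.0823% lower). At an unadjusted limma p of 0.05 or less 1 was lower, where 5.33% of all tested genes were. The median log2 fold change of the partner genes was 0.09. Abcc9, the regulatory subunit paired with Kcnj11 in muscle, had a log2 fold change of -0.02, and Abcc8 was under the minimum. The largest positive value was that of Ank2, a membrane scaffold (0.43), and the lowest was that of Dlg4, a channel scaffold, at 1.21, 1.54 and 1.67 FPKM against 0.927 and 0.856 FPKM (-0.65, limma adjusted p = 0.301). Of 14 genes of potassium pumps and cotransporters, 10 were tested and none was called, with 1 in each direction at an unadjusted limma p of 0.05 or less (6.57% of all tested genes were higher at that p and 5.33% lower). Atp1b2, a beta subunit of the sodium pump, was at 63.1, 48.7 and 54.6 FPKM against 28.7 and 39.0 FPKM (-0.72, limma adjusted p = 0.197), with no overlap. Of 13 genes known to rise in denervated muscle, 10 were tested and none was called in limma. At an unadjusted limma p of 0.05 or less 2 were higher and 0 lower, where 6.57% and 5.33% of all tested genes were. Musk, a receptor kinase of the neuromuscular junction, was at 1.09, 1.49 and 1.76 FPKM against 3.49 and 3.30 FPKM (1.2, limma adjusted p = 0.110), Ncam1 had the largest value (1.75, limma adjusted p = 0.349) with overlapping groups, and Myog the lowest (-0.43).

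Markers of the cell types in the tissue were read beside these genes, and none was called. In bulk tissue, fewer cells of a type and less RNA per cell cannot be told apart. Fast muscle markers, all 9 of 9 measured, summed to 87232 to 116038 FPKM in WT control and to 83591 and 80040 FPKM in the libraries labelled skmNrip1-/-, and in 4 of them both libraries labelled skmNrip1-/- lay below WT control, where 14.4% of all tested genes did. Slow muscle markers, 6 of 6 measured, summed to 22.3, 23.9 and 31.0 FPKM against 67.5 and 52.4 FPKM, and most of this difference was Myl2, at 2.03, 1.85 and 9.68 FPKM against 42.1 and 33.6 FPKM (limma adjusted p = 0.127). Myh7, the defining myosin of slow fibers, overlapped between groups, at 0.449 to 1.72 FPKM. Blood and immune markers summed to 286 to 428 FPKM against 561 and 456 FPKM, of which the hemoglobin genes were the most. Of the immune markers, Ptprc, Cd68 and Adgre1 overlapped between the groups. Cd3e and Cd79a, under the minimum, lay below every WT control library. Smooth muscle and pericyte markers (150 to 163 FPKM in all libraries), endothelial markers (73.6 to 90.2 FPKM), Schwann cell and nerve markers (24.9 to 41.6 FPKM, 6 of 8 measured), and adipocyte markers (2.11 to 3.92 FPKM) had sums that overlapped between the groups. Heart muscle markers, 2 of 4 measured, summed to 1.84 to 3.64 FPKM against 1.81 and 1.08 FPKM. The part of slow muscle, blood and mitochondrial RNA in the differences of Kcnk1 and the other members was not tested.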

How the data were processed

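The RNA-seq reads of TA muscle were quantified by the authors with Salmon 1.10.2 on mm10 and summarized to genes with tximport, and the authors deposited per-library FPKM, for which neither the calculation nor the annotation release is given in the sources used here. The table also holds a log2 fold change and adjusted p from the authors' DESeq2 1.44.0 comparison, which were not used. The deposited FPKM are not counts, so depth is unknown beyond a relative value. For the comparison, log2(FPKM + 0.1) of all 5 libraries entered 1 limma 3.58.1 fit (R 4.3.3, trended eBayes). Genes whose mean reached 0.5 FPKM, 12148 in number, were kept, and their p-values were adjusted by Benjamini-Hochberg. Calls needed an adjusted p of at most 0.05 and a 1.2-fold change. P-values set the group difference against the spread between these libraries, with a variance that eBayes draws partly from all genes. The members and all lists were chosen with earlier results of these data known. Members with a mean of at least 0.5 FPKM were named, in full where called, at an unadjusted p of 0.05 or less, or highest of their subfamily. Members of at least 0.1 FPKM under the minimum were named where groups did not overlap, together with the 3 genes on each side of Kcnk1 and the largest rise and fall of each list. Kcnh7, Kcnq1, Kcnq3, Kcng2 and Kcns3 were named outside this rule, after their values were seen, and some genes that meet it are not reported here, though counts and sums include them. Gene positions came from GENCODE M21 (GRCm38), which held 16996 of the table's gene IDs, and promoter windows from RefSeq (GRCm38.p6). Alternatives were pseudocounts of 1 and 0.01, no minimum or 1 FPKM, rescaling to TPM or by median of ratios, eBayes without trend or robust, the replicate number as a block, leaving out each library, an adjusted p of 0.01, and no fold threshold. The median of ratios was 1.0017 in every library, so rescaling by it could not change a result and tests nothing. Tables and plots were made with Python 3.11.15, pandas 2.3.3 and matplotlib 3.10.9.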

Additional observations from a re-analysis of the deposited data

How the results depend on the processing

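The number of potassium channel genes called higher was 2, and it was 1, Kcnk1, with a pseudocount of 0.01, with no minimum on FPKM, in TPM, with eBayes without the trend and at an adjusted p of 0.01 or less. It was 1 to 2 when single libraries were left out. No member was called lower under any alternative run. Over the tested members, log2 fold changes had a median of -0.26 in TPM, where that of all genes was -0.29, and ran from -0.051 to 0.093 without single libraries, highest without skmNrip1-/- replicate 1. In TPM the calls over all genes were 29 higher and 59 lower, against 45 and 10 in FPKM.

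The value of Kcna7 turned to -0.27 in TPM and to between -0.12 and 0.15 without single libraries. Without single libraries, Kcnc4 ran from -0.24 to 0.079 and Kcnh2 from -0.051 to 0.75. Kcnc4 and Kcna7 (-0.06) turned without skmNrip1-/- replicate 1 and Kcnh2 without skmNrip1-/- replicate 2. The cause was not tested. With the replicate block, which used the number of the labels, 1 potassium channel gene, Kcnk1, was called higher, the median of the members was 0.01, and calls over all genes were 18 higher and 4 lower. Only WT control has a replicate 3, so the block gave the same log2 fold changes as leaving that library out. The deviations of same-numbered libraries correlated at 0.0647 and 0.0952. With 2 libraries in a group these mirror each other, and they do not settle whether the numbers pair the samples. No label says that a number marks a shared animal, litter or day.

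Calls over all genes were 22 higher and 3 lower without the trend, 38 and 9 with a pseudocount of 0.01, and 6 to 51 higher and 2 to 15 lower without single libraries, where a lone library is assumed to vary like the other group. With 2 libraries labelled skmNrip1-/- and unknown depth, members under 0.5 FPKM were read mainly as levels. For Kcnf1, Kcng1, Kcnv2 and Kcnj3 the fit with no minimum was also given, and none of these was called in it.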
